A study of Homo sapiens and Mus musculus with 33 samples.

Results

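Of the 40266 ChIP-seq peaks listed for HCT116 cells, 14703 (36.5%) were narrower than 10 kb, overlapped a gene of the deposited RNA-seq table and lay at least 5 kb from every gene start in that table. These peaks inside genes are the subject here. They were chosen by position alone and not by any read count. HCT116 cells are an established human line derived from a colon carcinoma. The cells had been treated for 18 h either with 5 µM MS275 (entinostat), an inhibitor of class I histone deacetylases (HDACs), or with the same amount of DMSO, the vehicle, and carried no other stated alteration. Chromatin was immunoprecipitated with an antibody against H3K18cr, histone H3 crotonylated at lysine 18, or against H3K18ac, the acetylated form of the same lysine, with 3 libraries per mark and treatment and 1 input library per treatment. RNA-seq comprised 4 libraries per treatment.

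Acetyl and crotonyl groups are placed on H3K18 by acyltransferases such as p300 and CBP, and class I HDACs can remove both. The marks are known from active promoters and enhancers. Within a gene, such a site can be an internal promoter, from which a shorter transcript starts, or an enhancer lying in an intron. A list of peaks away from gene starts can hold both kinds of site.

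The libraries held 2236551 to 5730094 reads in peaks for the marks, and 1550122 and 1374609 for the inputs. The authors scaled each library to the largest one, by factors of 1 to 1.65, and the values below are these scaled reads. The H3K18ac DMSO libraries differed most among themselves, with 40.2, 46.6 and 59.4 scaled reads per kb of peak over the whole list. RNA libraries held 35608533 to 53415604 counts. In the RNA, 5 of 8 epithelial markers were at 1 CPM or more (CPM is a gene's count scaled to its library's total), with a summed level of 3601 to 5142 CPM in DMSO and 4726 to 5658 CPM in MS275. The intestinal markers CDH17 and VIL1 were at a median of 0 and 0.0614 CPM, and CDX1 was at 0 in every library. None of the 4 immune markers (0 of 4) and 1 of the 4 stromal markers, COL1A1, reached this level. The summed stromal level was 5.43 to 8.37 CPM in DMSO and 10.6 to 17.9 CPM in MS275, and the part of this difference in the results was not tested.

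Peaks inside genes had a median width of 1650 bp and lay a median of 31734 bp from the nearest gene start. Of these peaks, 30% overlapped an exon of the GENCODE 44 annotation (GRCh38) and 17.4% a coding sequence. Among the 13596 peaks with a single host gene, 23.2%, 28.8%, 25.5% and 22.5% lay in 4 equal stretches of the gene from its start to its end. The peaks were thus spread along their genes. Their DNA had a median GC content of 44.7% and a median ratio of observed to expected CpG of 0.194. Peaks near gene starts had 53.5% and 0.561, and intergenic peaks 45.5% and 0.186.

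The gene table gives 1 start per gene, the outermost, so that a widely used promoter can lie far inside the listed interval. Of the peaks inside genes, 2183 (14.8%) overlapped the start of a GENCODE transcript and a further 729 (4.96%) lay within 1 kb of one. These 2912 peaks are called peaks at internal transcript starts below. Of them, 1511 lay within 1 kb of the start of a protein-coding transcript, and the rest only near starts of other transcript types. The other 11791 peaks had no GENCODE transcript start within 1 kb. Promoter windows of RefSeq (GRCh38.p14, 250 bases before to 50 after a start) overlapped 965 peaks inside genes, and in 763 of these the promoter belonged to the host gene itself. Among the 965 were 105 peaks without a GENCODE transcript start within 1 kb. The 2 kinds of site differed in sequence. The median CpG ratio was 0.273 at internal transcript starts and 0.182 at the other peaks.

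Sequences of both kinds are shown as examples of 2 short motifs, and were chosen after their motifs were seen. The RefSeq promoter windows of RUNX1 (chr21:34888650-34888949, minus strand) and NCL (chr2:231464435-231464734, minus strand) lay within peaks inside these genes that were among the 5 strongest for H3K18cr per kb. RUNX1 encodes a transcription factor of blood development, and NCL encodes nucleolin, an abundant nucleolar protein. Capitals mark GGGCGG, the core of SP and KLF binding sites, or its reverse complement. Each window is given 5′ to 3′ on the strand of the gene.

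RUNX1 promoter: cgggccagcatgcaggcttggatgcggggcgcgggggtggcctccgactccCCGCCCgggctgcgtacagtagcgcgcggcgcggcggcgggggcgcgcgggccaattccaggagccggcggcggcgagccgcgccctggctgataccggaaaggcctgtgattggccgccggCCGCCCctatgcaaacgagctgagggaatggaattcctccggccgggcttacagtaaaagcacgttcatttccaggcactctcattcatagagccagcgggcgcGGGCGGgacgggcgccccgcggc

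NCL promoter: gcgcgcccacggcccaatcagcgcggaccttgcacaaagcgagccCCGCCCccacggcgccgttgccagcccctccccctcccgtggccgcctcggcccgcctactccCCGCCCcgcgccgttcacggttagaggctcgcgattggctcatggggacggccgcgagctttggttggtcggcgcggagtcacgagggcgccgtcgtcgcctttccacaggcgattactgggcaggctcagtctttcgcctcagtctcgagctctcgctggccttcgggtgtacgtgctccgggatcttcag

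The central 300 bases of 3 peaks without a nearby transcript start follow, read on the plus strand of GRCh38. The peak in the noncoding gene RP11-608O21.1 (centre chr4:19739176-19739475) had the largest fall of H3K18cr with MS275 among the named peaks, and that in ATP2B4 (centre chr1:203682301-203682600) the fifth largest. ATP2B4 encodes a calcium pump of the plasma membrane. The peak in PRKCE (centre chr2:46117351-46117650), which encodes protein kinase C epsilon, rose. Capitals mark TGANTCA, the core of AP-1 binding sites, which reads the same on both strands.

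RP11-608O21.1: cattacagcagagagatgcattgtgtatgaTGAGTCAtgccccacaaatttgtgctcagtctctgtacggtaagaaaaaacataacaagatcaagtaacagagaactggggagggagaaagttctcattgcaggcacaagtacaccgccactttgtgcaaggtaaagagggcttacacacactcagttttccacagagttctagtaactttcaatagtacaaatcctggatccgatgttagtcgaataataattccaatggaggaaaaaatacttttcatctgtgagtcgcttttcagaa

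ATP2B4: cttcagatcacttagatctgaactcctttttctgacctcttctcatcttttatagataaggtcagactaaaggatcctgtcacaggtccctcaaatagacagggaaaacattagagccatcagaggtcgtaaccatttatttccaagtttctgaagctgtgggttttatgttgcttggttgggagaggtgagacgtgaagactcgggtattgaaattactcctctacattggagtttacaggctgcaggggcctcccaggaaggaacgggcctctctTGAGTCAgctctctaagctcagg

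PRKCE: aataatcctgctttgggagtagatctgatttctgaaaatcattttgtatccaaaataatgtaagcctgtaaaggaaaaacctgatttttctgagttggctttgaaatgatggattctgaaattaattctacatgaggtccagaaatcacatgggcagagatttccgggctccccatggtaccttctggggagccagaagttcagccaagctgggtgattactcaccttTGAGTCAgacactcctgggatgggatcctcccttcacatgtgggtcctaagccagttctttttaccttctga

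AP-1 is a dimer of JUN and FOS proteins that binds enhancers in epithelial cells. The motifs were not in all named peaks. Of the 18 named peaks without a nearby start, 5 held the AP-1 core in their centre and 13 did not, NR2E3, DRAXIN and H6PD among them. Of the 17 named peaks with a start within 1 kb, 5 held it as well, RUNX1 and GLTSCR1L among them. The promoter windows of EMC3-AS1, RUVBL1 and ARHGEF7 held no GGGCGG. The AP-1 core occurred in the central 300 bases of 2361 (20%) of the peaks without a nearby transcript start and in 14.3% of the peaks at internal transcript starts. It was found in 19.5% of intergenic peaks, in 8.17% of peaks near gene starts and in 7.71% of 35116 RefSeq promoter windows of the same length. GGGCGG was more frequent at starts. It occurred in 6.06% of the peaks without a nearby start and in 25.9% of the peaks at internal starts, against 46% of peaks near gene starts and 45% of promoter windows. CCGGAAG, a core of ETS sites, occurred in 1.12% and 3.43% of the 2 kinds and in 10.3% of promoter windows. CTTTGAT (TCF/LEF, the factors of Wnt signalling) was found in 4.89% and 3.37%, and ACATTCC (TEAD) in 5.41% and 4.53%. The CTCF core (CCANNAG followed by NNGGC), the CDX core TTTATTGC and the HNF4A core CAAAGTCCA occurred in 1.5%, 1.44% and 0.424% of the peaks without a nearby start. All motifs were searched on both strands, and a match shows only that the letters are present. Median GC content was 43.9% at the peaks without a nearby start, 50% at internal starts and 53.5% near gene starts, and its part in these shares was not tested.

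**Figure D1:**
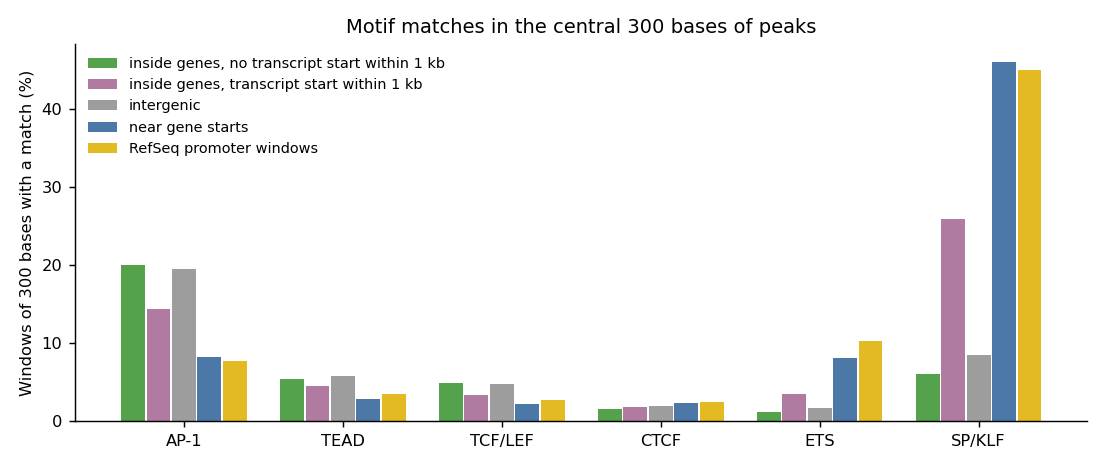
Share of 300-base windows (y axis, %) with a match to 6 motif cores (x axis), for peaks inside genes without and with a transcript start within 1 kb, intergenic peaks, peaks near gene starts and RefSeq promoter windows. The AP-1 core was found in 20% of peaks inside genes without a nearby transcript start and 8.17% of peaks near gene starts, and the SP/KLF core in 6.06% and 46%.

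In DMSO, peaks inside genes held a median of 1.95 times the input reads for H3K18cr and 1.89 times for H3K18ac. Peaks near gene starts held 2.84 and 2.88 times. At internal transcript starts the ratio was 2.22 for H3K18cr, and it was 1.91 at the peaks without one and 1.96 at intergenic peaks. A single input per treatment gives these ratios no error of their own.

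The peaks with the most H3K18cr per kb in DMSO all overlapped a GENCODE transcript start. At the promoters of FADS1 and FADS2, desaturases of fatty acid synthesis (chr11:61813951-61818900), the DMSO libraries held 677, 661 and 662 scaled reads against 88.7 in the input. GLTSCR1L (BICRAL, a subunit of a chromatin remodelling complex; chr6:42780451-42785250) held 608, 622 and 546, and RUNX1 (chr21:34885051-34891050) held 869, 710 and 589. NCL (chr2:231462601-231465900) held 376, 394 and 360, and ACTB, the gene of beta-actin (chr7:5528401-5534250), held 691, 692 and 603. Both ACTB and RUNX1 lie on the minus strand, and the table puts their starts at chr7:5563784 and chr21:36004667. The nearest start of any gene lay 14603 bp from the ACTB peak and 139294 bp from the RUNX1 peak.

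With MS275 these 5 peaks all fell in both marks. They were chosen for high reads in the same H3K18cr DMSO libraries, and such a choice favours a fall. The H3K18cr p-values of these peaks are thus not independent of the choice. The FADS1 and FADS2 peak held 288, 299 and 417 scaled H3K18cr reads (log2 change -1.02 ± 0.16 SE, adjusted p = 4.33e-05, limma). NCL held 197, 156 and 215, a log2 change of -1.01 ± 0.16. ACTB held 303, 331 and 490, a log2 change of -0.85 ± 0.17 and the smallest of the 5. In each of these peaks every MS275 library lay below every DMSO library for both marks. The RUNX1 peak held 361, 317 and 438 and changed by -0.95 ± 0.16 in H3K18cr and by -0.93 ± 0.25 in H3K18ac, where 4 of the 6 fits that left out a library kept the call. RNA of the host genes did not pass the test with or without pairing at NCL (adjusted p = 0.246 paired), ACTB (0.483), FADS1 (0.936) or FADS2 (0.418). RUNX1 RNA was 22.9 to 37.2 CPM in DMSO and 35.3 to 66.1 CPM in MS275 and rose only when the libraries were paired (log2 change 0.67, adjusted p = 0.0014 paired and 0.427 unpaired).

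Whether HDAC inhibition moved the marks between gene bodies and gene starts was read from the share of each library's peak reads, which does not depend on the scaling of a library. For H3K18cr, peaks inside genes held 21.5%, 21.9% and 22.2% of the reads in DMSO and 25.1%, 25.2% and 24.6% in MS275. The mean difference was 3.08 percentage points (SD 0.62, 3 pairs), higher in 3 of 3 pairs, with no overlap between treatments. For H3K18ac the shares were 22.5%, 21.3% and 20.3% in DMSO and 23.9%, 25.1% and 24.9% in MS275, a mean of 21.3% (SD 1.10, n = 3) against 24.6% (SD 0.65, n = 3), a difference of 3.29 percentage points without overlap. Same-numbered H3K18ac libraries did not deviate together, so these are compared as groups. The inputs held 27% and 27.3%, so that the shares with MS275 lay closer to the input. The exact permutation test of 3 against 3 gave p = 0.1 for each mark, the smallest it allows (two-sided). The exact sign-flip test over same-numbered libraries gave 0.25 for each mark, likewise its smallest.

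**Figure D2:**
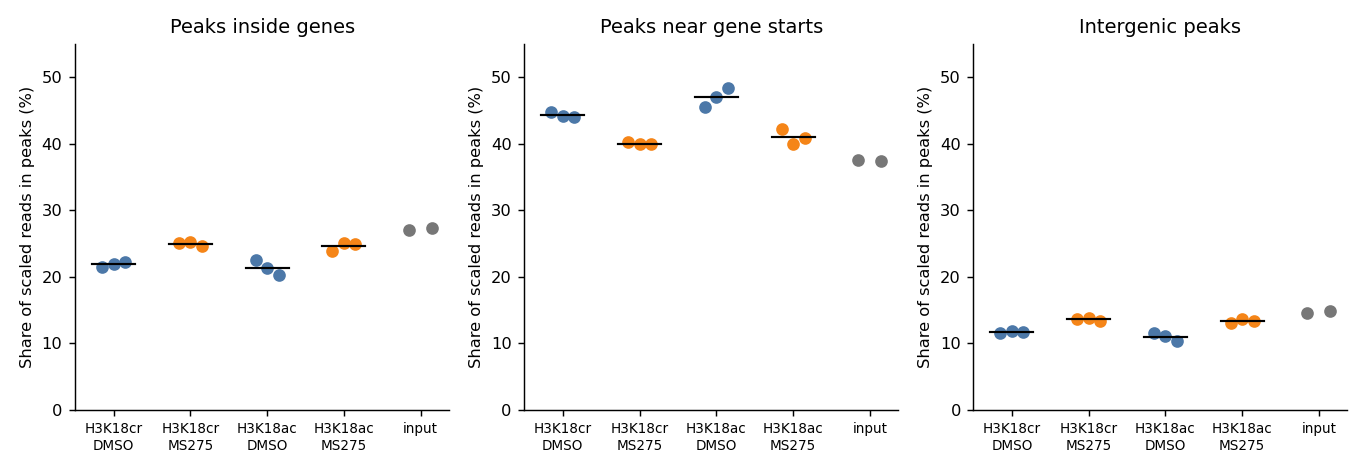
Share of the scaled reads in peaks (y axis, %) that fell in peaks inside genes, near gene starts and in intergenic peaks, for each library; points are libraries, lines are means of 3, and grey points are the 2 inputs. Inside genes the MS275 libraries lie between 23.9% and 25.2% and the DMSO libraries between 20.3% and 22.5%, in the opposite order to peaks near gene starts.

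Set against peaks near gene starts directly, the log2 ratio of summed reads inside genes to those near starts was higher with MS275 by 0.34 for H3K18cr (higher in 3 of 3 pairs) and by 0.40 for H3K18ac, with no overlap in either mark. The exact permutation p was 0.1 and the sign-flip p 0.25 for both. The summed reads themselves were lower on average. Per kb of peak they were 38.7, 37.7 and 34.4 in DMSO and 31.2, 30.8 and 33.4 in MS275 for H3K18cr, a mean log2 change of -0.22 (SD 0.15) that was negative in 3 of 3 pairs (exact sign-flip p = 0.25). For H3K18ac they were 31.4, 34.5 and 41.9 in DMSO and 33.9, 29 and 28.2 in MS275. The mean log2 change was -0.24, the treatments overlapped, and the exact permutation p was 0.2. It was -0.41 without replicate 1 of both treatments and -0.07 without replicate 3. No spike-in is stated, so a fall in a peak and a gain of reads elsewhere in the genome cannot be told apart.

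Within genes, the fall was larger at internal transcript starts. The log2 ratio of reads at internal starts to reads at the other peaks was -1.15, -1.19 and -1.23 in the H3K18cr DMSO libraries and -1.38, -1.39 and -1.39 with MS275. For H3K18ac it was -1.23, -1.15 and -1.05 in DMSO and -1.33, -1.43 and -1.42 with MS275. The treatments did not overlap in either mark, and the inputs were at -1.49 and -1.51. By contrast, the ratio of peaks without a nearby start to intergenic peaks overlapped between treatments, at 0.36 to 0.41 in DMSO and 0.40 to 0.41 in MS275 for H3K18cr.

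Peak by peak, 14602 peaks inside genes passed the filter for H3K18cr (a mean of at least 10 scaled reads). Of these, 1193 (8.17%) were lower and 52 (0.356%) higher with MS275 at an adjusted p under 0.05 (limma). Over the whole list, 23.0% of 40033 peaks were called lower and 0.232% higher. The median log2 change was -0.08 inside genes, against -0.46 near gene starts and -0.20 over all peaks tested. By pair, the median inside genes was -0.18, -0.17 and 0.03, so that the third pair did not share the direction, and it was -0.14 without DMSO replicate 3. For H3K18ac, 748 of 14633 (5.11%) were lower and 41 (0.28%) higher, against 16.3% and 0.262% of the whole list, with a median of -0.09. This median was -0.15 without DMSO replicate 1 or MS275 replicate 1, -0.02 without DMSO replicate 3 and -0.05 without MS275 replicate 3. The share called lower inside genes was thus below that of the list in both marks. This was not particular to peaks inside genes. Of intergenic peaks, 6.71% were called lower in H3K18cr and 2.84% in H3K18ac, with medians of -0.05 and -0.02. Which libraries the peak list was called on is not given in the sources used here, and its part in the balance of lower and higher calls was not tested. Of the peaks lower in H3K18cr, 545 were also lower in H3K18ac (45.7% of the first list and 72.9% of the second), while no peak (0) was called higher in both. MS275 libraries lay below all DMSO libraries at 2278 peaks inside genes for H3K18cr and above them at 614, where the whole list had 29.8% and 3.18%. For H3K18ac these counts were 1822 and 619, and the list had 23.0% and 3.34%. Peaks with few reads are called less often, and the median peak inside genes had 47.9 scaled reads in the H3K18cr fit. Where the mean reached 50 scaled reads, 15.9% inside genes and 55.5% near starts were called lower.

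The direction of the calls depended on the scaling. TMM, which centres the bulk of all peaks, put the median of all peaks at 0.04 instead of -0.20 (H3K18cr) and at 0.06 instead of -0.19 (H3K18ac). Inside genes it gave 375 lower and 315 higher calls for H3K18cr (54.3% lower, against 95.8% with the authors' scaling), where the whole list had 11.1% lower and 1.77% higher. For H3K18ac it gave 727 lower and 705 higher (50.8% lower, against 94.8%), where the list had 16.6% and 4.49%. When same-numbered H3K18cr libraries were paired by a block, 1493 peaks were lower and 101 higher (whole list 26.1% and 0.520%). For H3K18ac, whose same-numbered libraries did not deviate together, the block left 64 lower and 4 higher (2.01% and 0.0224%). With TMM and the block together, a combination chosen after seeing the data, 775 were lower and 1018 higher in H3K18cr (whole list 17.9% and 5.76%), and 638 lower and 553 higher in H3K18ac (15.3% and 3.51%). Calls for H3K18cr also turned on single libraries. The lower calls numbered 669, 685 and 1993 without DMSO replicate 1, 2 or 3, and 651 and 580 without MS275 replicate 1 or 2. The higher calls numbered 15, 14 and 23 without MS275 replicate 1, 2 or 3. For H3K18ac the lower calls numbered 1266, 262 and 330 without DMSO replicate 1, 2 or 3, and 124 and 153 without MS275 replicate 2 or 3. The higher calls numbered 15 without DMSO replicate 2, and 24, 5 and 8 without MS275 replicate 1, 2 or 3.

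Internal transcript starts carried 52.9% of the peaks lower in H3K18cr and 61.1% of those lower in H3K18ac. At internal starts 21.7% were called lower in H3K18cr, with a median log2 change of -0.24, and at the peaks without one 4.8%, with a median of -0.06. For H3K18ac these shares were 15.7% and 2.48%. Among peaks averaging 50 scaled reads or more, the shares were 29.8% and 10.2% for H3K18cr and 21.5% and 4.79% for H3K18ac. Peaks overlapping a transcript start had a median H3K18cr change of -0.28, those up to 1 kb away -0.08, those 5 to 20 kb away -0.07 and those over 20 kb away -0.03. Of 4 equal groups by CpG ratio, the lowest had a median of 0.01 and the highest -0.25. Width moved with both, and the narrowest and widest of 4 groups had medians of 0.04 and -0.21. Their separate parts were not tested. TMM adds about the same amount to every peak, and the H3K18cr medians at internal starts and at the other peaks became 0.00 and 0.18. With it, the calls at the peaks without a start were mostly higher, with 121 lower and 270 higher in H3K18cr and 264 and 593 in H3K18ac. At internal starts they stayed mostly lower, with 254 lower and 45 higher in H3K18cr and 463 and 112 in H3K18ac.

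**Figure D3:**
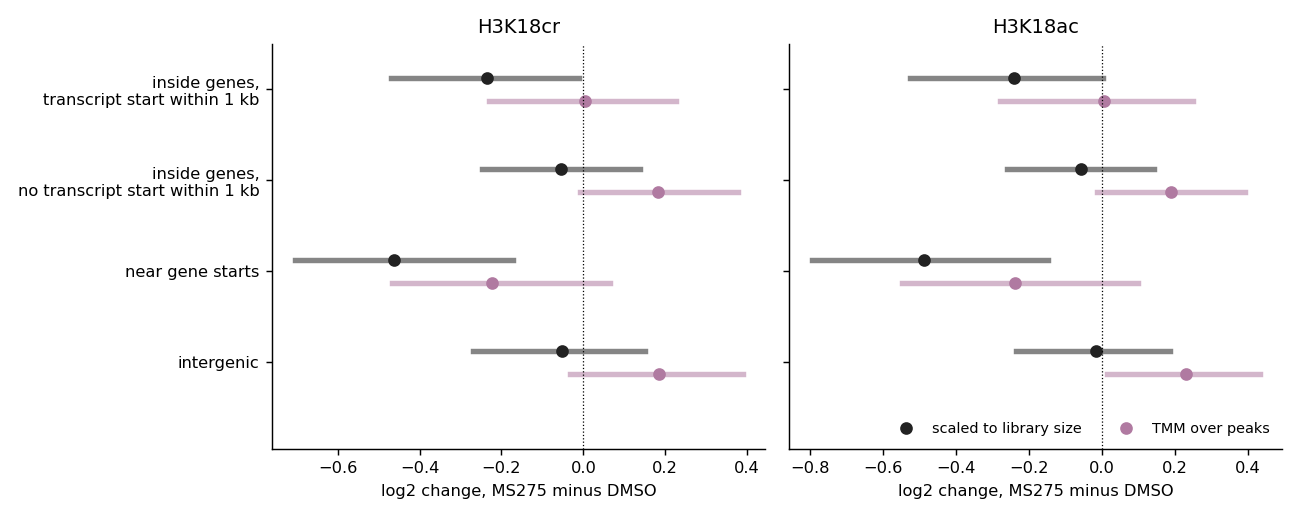
Log2 change of H3K18cr and H3K18ac (x axis, MS275 minus DMSO) for peaks inside genes with and without a transcript start within 1 kb, peaks near gene starts and intergenic peaks; points are medians over peaks and bars run between the quartiles, with the authors' scaling in black and TMM in purple. For H3K18cr the median at internal starts (-0.24) lies between those near gene starts (-0.46) and at the other peaks inside genes (-0.06), and TMM shifts all groups to the right.

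At the 5 kb limit, the 490 peaks 5 to 6 kb from a gene start had a median H3K18cr change of -0.11 and the 558 peaks at 4 to 5 kb, which were left out, -0.12. At the width limit, 109 peaks of 9 to 10 kb had a median of -0.28 and 80 left-out peaks of 10 to 11 kb -0.29. Peaks on either side of both limits were alike in this measure.

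Of the 5 largest falls of H3K18cr among well-covered peaks, 3 lay at promoters. The peak at the internal start of BCL2L13, a mitochondrial BCL2-like protein (chr22:17637451-17640600), held 271, 292 and 303 scaled reads in DMSO and 109, 119 and 139 in MS275 (log2 change -1.24 ± 0.17 SE, adjusted p = 1.63e-05, limma). Its H3K18ac fell from 331, 339 and 456 to 191, 145 and 152. ALG13, a gene of protein N-glycosylation (chrX:111680251-111682350), held 133, 158 and 179 H3K18cr reads in DMSO and 64.1, 51 and 85.6 in MS275, and changed by -1.25 ± 0.20 in H3K18cr and -1.44 ± 0.25 in H3K18ac. FAM122C (PABIR3, chrX:134806651-134808150) held 69, 95.5 and 88.2 in DMSO and 33.7, 21.2 and 42.1 in MS275. DESeq2 gave this peak a log2 change of -1.12 and no adjusted p. The H3K18cr treatments were apart in all these peaks because the falls were chosen for it. The H3K18ac values of FAM122C overlapped (50.9, 95 and 103 against 66.2, 31.3 and 45.1).

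The other falls had no transcript start within 1 kb. The peak in RP11-608O21.1 (chr4:19738201-19740450), 14141 bp from the nearest start, held 89, 79.2 and 101 H3K18cr reads in DMSO and 36, 22.7 and 44.9 in MS275 (log2 change -1.42 ± 0.23 SE, adjusted p = 5.88e-05, limma). It was 8.59 times over the DMSO input, a ratio that rests on only 10.4 scaled input reads. DESeq2 gave it a log2 change of -1.13 and no adjusted p. It overlapped no exon and held an AP-1 core, shown above. The peak in ATP2B4 (chr1:203681251-203683650) held 110, 117 and 139 in DMSO and 46.1, 48.2 and 64.5 in MS275, at 2.13 and 1.44 times the input. It was the only 1 of the 7 peaks in ATP2B4 called lower in H3K18cr, and ATP2B4 RNA did not pass the paired test (adjusted p = 0.0831).

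For H3K18ac, the largest falls were at EMC3, ARHGEF7, H6PD, ALG13 and RUVBL1. EMC3, a subunit of the complex that inserts proteins into the endoplasmic reticulum membrane (chr3:9986401-9987900), held 84.9, 116 and 156 scaled H3K18ac reads in DMSO and 55.8, 24.7 and 37.7 in MS275 (log2 change -1.63 ± 0.25 SE, adjusted p = 6.84e-07, limma). RUVBL1, an ATPase of chromatin remodelling complexes (chr3:128122351-128124900), fell by 1.41 ± 0.25, from 208, 228 and 349 to 117, 77.5 and 96.4. ARHGEF7, a guanine nucleotide exchange factor for Rac (chr13:111152551-111154950), fell by 1.45 ± 0.25. H6PD (chr1:9257701-9259650) lay 5880 bp from a transcript start and fell by 1.45 ± 0.25 in H3K18ac. Its H3K18cr values were 37, 40.9 and 99 in DMSO and 33.7, 42.5 and 40.7 in MS275, and overlapped (log2 change -0.45 ± 0.27, adjusted p = 0.261).

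Rises were few and rested on lower counts. The 52 peaks called higher in H3K18cr had a median of 32.1 scaled reads, against 154 in the peaks called lower, and 6 of the 52 lay within 1 kb of a transcript start. The 5 largest rises whose libraries did not overlap and averaged 50 reads or more are given here. NR2E3, a nuclear receptor of photoreceptor cells (chr15:71806351-71808150), held 51, 28.7 and 35.6 reads in DMSO and 67.5, 73.6 and 61.7 in MS275 (log2 change 0.85 ± 0.23 SE, adjusted p = 0.00505, limma). The input was 23.5 and 22.6, and NR2E3 RNA had no count in any of the libraries. DRAXIN, a secreted axon guidance protein (chr1:11707201-11709750), held 72, 60.1 and 55.7 and then 88.9, 87.8 and 96.8 (0.55 ± 0.19, adjusted p = 0.0346). PRKCE (chr2:46116301-46118700) held 51, 80.5 and 40.2 and then 86.6, 87.8 and 87, and TLK2, a kinase of chromatin assembly (chr17:62561551-62564250), 72, 87.4 and 57.2 and then 99, 99.1 and 126. The fifth, in RP11-594N15.2, rose by 0.60 ± 0.20. Of these 5, NR2E3 was given a log2 change of 1.05 and no adjusted p by DESeq2, and limma called it in 5 of the 6 fits that left out a library (not without DMSO replicate 2), RP11-594N15.2 in 2, and PRKCE, TLK2 and DRAXIN in 1. With the authors' scaling, H3K18ac passed the test at none of the 5 peaks, and no rise of H3K18ac (0) met both conditions. With TMM, H3K18ac passed at TLK2 (log2 change 0.86, adjusted p = 0.000132, limma) and DRAXIN (0.66, adjusted p = 0.00657) and at none of the other 3.

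**Figure D4:**
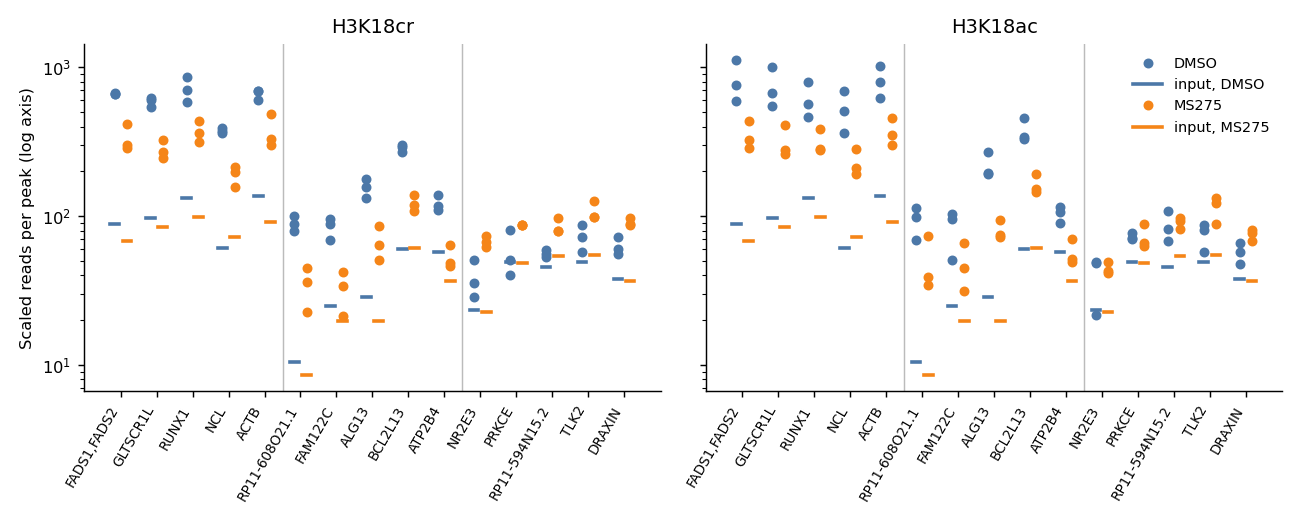
Scaled reads per peak (y axis, log scale) in each H3K18cr and H3K18ac library for the 5 strongest peaks per kb (left), the 5 largest H3K18cr falls (middle) and the 5 H3K18cr rises (right); points are libraries and short lines the 1 input of each treatment. In the H3K18cr panel the DMSO and MS275 points do not overlap at any of the 15 peaks, which the choice of the falls and rises required. The rising peaks hold 1.16 to 1.66 times their input in DMSO.

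The 2 marks were not told apart inside genes. In DMSO the median log2 difference of H3K18cr from H3K18ac was 0.05 (quartiles -0.13 and 0.22), and 99.7% of peaks were within 1 log2 unit. No peak (0; whole list 0%) was called between the marks in DMSO by limma. At an unadjusted p under 0.05 there were 790 of 14703 inside genes and 2767 of 40266 over the whole list. The lowest adjusted p inside genes was 0.714. TMM called 18 lower and 7 higher (whole list 0.787% and 0.114%), and DESeq2 31 and 19 (3.62% and 0.554% of the peaks it gave an adjusted p). The MS275 change also differed between marks at no peak (0, and 0% of the whole list). At an unadjusted p under 0.05 there were 325 of 14703 inside genes and 739 of 40266 over the whole list.

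The peaks lay in 6032 genes, of which 3114 held 1 peak and 224 held 10 or more. Hosts were long, with a median of 82397 bp against 13337 bp for all 35805 genes of the table. The DNA repair gene RAD51B held the most, 69 peaks over 910440 bp, followed by RUNX1 with 67, the noncoding gene RP11-114H23.1 with 59, the lipid phosphatase gene INPP4B with 51 and the repressor gene ZBTB20 with 46. Summed H3K18cr in DMSO was 1.83 times the input in RAD51B and 3.23 times in RP11-114H23.1. In RUNX1 the median H3K18cr change was 0.01, with 2 of 67 peaks called lower, the promoter peak among them, and none (0) higher. In RP11-114H23.1 the median was -0.41 and 11 of 59 were called lower, while in RAD51B no peak (0) was called in H3K18cr and the range was -0.58 to 0.47.

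Host genes were grouped by pathway. Of 46 genes of epithelial adhesion and polarity, 28 held 149 peaks, of which 13 (8.72%) were lower in H3K18cr and 11 (7.38%) in H3K18ac. PARD3, a scaffold of apical junctions, held 44. Its peak with the most H3K18cr reads in DMSO (chr10:34524001-34530600) lay in an intron and held 353, 374 and 527 H3K18cr reads in DMSO and 220, 178 and 358 in MS275 (log2 change -0.77 ± 0.19 SE, adjusted p = 0.00328, limma, and 0.0854 with TMM), with a lowest DMSO value below the highest MS275 value. In LPP, a protein of cell contacts with 14 peaks, the peak with the most H3K18cr reads held 398, 385 and 340 and then 259, 259 and 313 (log2 change -0.44 ± 0.16 SE, adjusted p = 0.039, limma). With TMM its adjusted p was 0.281, and 2 of the 6 fits that left out a library kept the call.

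Of 40 genes of the Wnt pathway, 17 held 70 peaks, of which 2 were lower and none (0) higher in H3K18cr, with a median change of 0.03. TNIK, a kinase that acts with TCF7L2, held 36 of them with a range of -0.43 to 0.52, and ZNRF3, a feedback inhibitor of Wnt receptors, 11. Of 40 genes of receptor tyrosine kinases and MAPK signalling, 15 held 63 peaks, with no H3K18cr call (0), and EGFR and IGF1R held 13 each. In the TGF-beta and BMP pathway 1 of 47 peaks was lower. Of 46 genes of enzymes and readers of histone acylation, 17 held peaks, and 4 of these 45 peaks were lower, with HDAC4 holding 9 and HDAC9 7. Of 45 genes of synapses and axon guidance, 33 held 198 peaks, of which 7 were lower and 2 higher. GRIN2B, a glutamate receptor subunit, held 33 and EFNA5, an ephrin ligand, 17, 1 of them higher. Over all peaks inside genes the share lower was 8.17% in H3K18cr and 5.11% in H3K18ac, and none of these counts was tested against it.

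RNA of the host genes was compared to ask whether genes with peaks inside changed. Of 6032 hosts, 4158 passed the count filter. Without pairing, 1 host was called, PAG1, an adaptor of Src family kinases, which rose (edgeR; 0.00668% of all genes tested were higher and 0% lower), and 416 hosts had an unadjusted p under 0.05. Without DMSO replicate 1 or 2 or MS275 replicate 2 no host (0) was called. Same-numbered libraries deviated together, as did some with unlike numbers. In a fit that blocked on the replicate number, 609 hosts (14.6%) rose and 179 (4.3%) fell, against 7.83% and 6.55% of the 14961 genes tested. DESeq2 without the block called 51 hosts higher and 7 lower, against 0.750% and 0.188% of all genes it gave an adjusted p. The median log2 change of hosts was 0.11 and that of all genes 0.01. In bulk RNA, fewer cells of a type and less RNA per cell cannot be told apart.

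Gene length moved with this result. Among genes of 100 kb or longer, 19.8% of 1892 hosts and 12.5% of 790 other genes were called higher in the paired fit. Under 20 kb these shares were 6.9% of 290 hosts and 3.71% of 5710 other genes. In each of the 4 length classes a larger share of hosts than of other genes was called higher. For lower calls the shares were 2.64% and 1.77% in the longest class and 7.24% and 9.42% in the shortest. They were 7.6% and 6.91% at 20 to 50 kb and 3.74% and 3.44% at 50 to 100 kb. In every class but the shortest, hosts were thus called lower more often as well. The part of length in the difference between hosts and other genes was not tested.

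**Figure D5:**
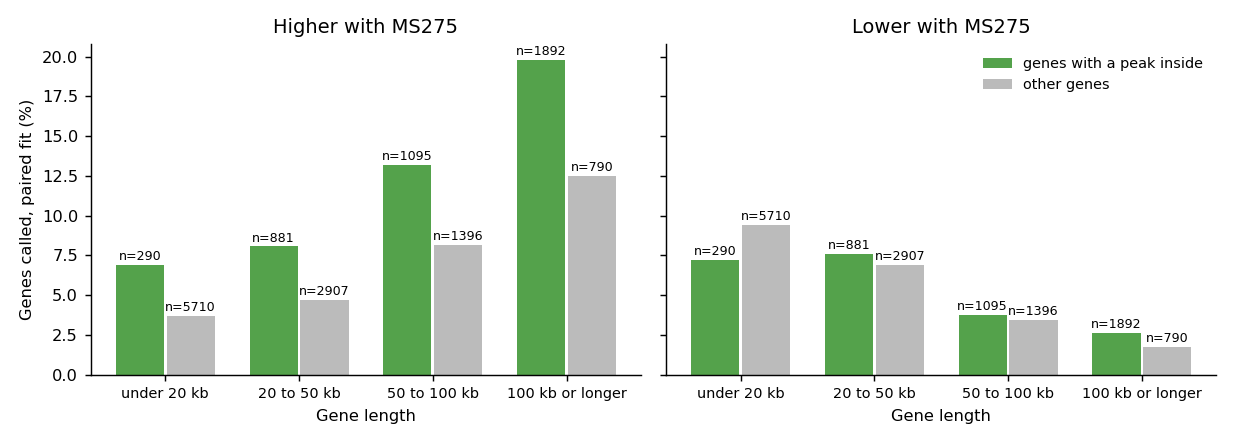
Share of tested genes called higher (left) or lower (right) in RNA with MS275 (y axis, %, edgeR with the replicate number as a block) by gene length (x axis), for genes with a peak inside (green) and other genes (grey); n is the number of genes tested. In genes of 100 kb or longer 19.8% of hosts and 12.5% of other genes were higher.

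Of the named hosts, EFNA5 RNA was 0.303 to 0.512 CPM in DMSO and 2.97 to 3.32 CPM in MS275, and was called with pairing and by DESeq2 (adjusted p = 0.00527 and 6.19e-08) but not by the unpaired edgeR test (0.229). DRAXIN was 2.54 to 5.22 CPM in DMSO and 6.78 to 13.8 CPM in MS275 (adjusted p = 0.00332 paired and 0.284 unpaired, edgeR, and 0.00845 with DESeq2), and its peak rose in H3K18cr. TLK2 had a rising peak and RNA that fell in the paired fit, by 0.35 on the log2 scale (adjusted p = 0.0176 paired and 0.835 unpaired, edgeR). LTBP1, which anchors latent TGF-beta, rose by 1.22 on the log2 scale in the paired fit (adjusted p = 0.000447, edgeR) and passed neither the unpaired edgeR test (0.39) nor DESeq2 (0.0622). None (0) of its 7 peaks was called.

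Grouped by the paired RNA call, the 2392 tested peaks in hosts that rose had a median H3K18cr change of -0.05, with 110 (4.6%) called lower and 9 (0.376%) higher. The 427 peaks in hosts that fell had a median of -0.19, with 62 (14.5%) lower and 2 higher. Peaks in hosts tested but not called had -0.12 and 10.4%, and the 3398 peaks in hosts not tested, whose counts were too low, had -0.02 and 3.62%. For H3K18ac the medians were -0.07, -0.14, -0.12 and 0.00 in the same order. With TMM the H3K18cr medians were positive in all 4 groups, at 0.19, 0.05, 0.12 and 0.22. The quartiles of the groups overlapped (-0.23 to 0.15 in hosts that rose and -0.41 to 0.02 in hosts that fell), and this comparison rests on RNA calls that were nearly absent without pairing.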

How the data were processed

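HCT116 peaks and genes were analysed; the mouse colon tables were not used here. Peak values are log2 of scaled reads as the authors deposited them: reads were trimmed, mapped to GRCh38 with Bowtie2, deduplicated, counted over 1 list of MACS peaks in SEQMONK and multiplied by 1 factor per library, with 0.9 read in place of 0. Which libraries the peaks were called on is not given in the sources used here. The recovered reads were whole in 100% of values (tolerance 0.05). RNA values are raw counts per gene as deposited. The submitters' processing notes name Trim Galore 0.4.2, TopHat2 2.0.12 and Bowtie2 2.2.5; whether strand was counted is not stated.

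Peaks with a mean of at least 10 scaled reads were tested with limma 3.58.1 (trend) and genes with edgeR 4.0.16 (quasi-likelihood test after TMM scaling and filterByExpr). R was version 4.3.3. P-values were adjusted over all peaks or genes by Benjamini-Hochberg, with a threshold of 0.05. DESeq2 1.42.0 was an alternative. The main fit of each comparison was first tested on simulated data without a replicate effect. The alternative fits, with the block, TMM over peaks or DESeq2, were not. Sums and shares were compared with exact tests in Python 3.11.15. Transcript starts and exons came from GENCODE 44. Of 35805 gene names, 20559 were found there, 97.3% of them with a transcript start no more than 1 kb from the one in the table.

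Libraries of both treatments carry the same replicate numbers in the labels, which do not say what a number marks. Deviations of same-numbered libraries correlated at 0.256, 0.181 and 0.461 for H3K18cr and at 0.226, 0.151, 0.436 and 0.46 for RNA, so these were treated as pairs. Some libraries with unlike numbers correlated above the same-numbered libraries 2. For H3K18cr, DMSO 1 with MS275 2 gave 0.215 and DMSO 2 with MS275 1 gave 0.188. For RNA, DMSO 2 with MS275 4 gave 0.239 and DMSO 4 with MS275 2 gave 0.219. The remaining unlike-numbered correlations were negative. The correlations thus do not single out these pairs for every library. The authors compared the 3 libraries per treatment as pairs for both marks, while their methods speak of fewer biological replicates for the ChIP experiments, and which libraries came from separate cultures is not given in the sources used here. P-values then measure the spread between these libraries, which may be partly technical.

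Peaks were named by rule, with a mean of at least 50 scaled reads: the 5 with the most H3K18cr per kb, the 5 largest falls and rises of each mark among called peaks without overlap, the 2 genes with most peaks of each gene list, and the 5 genes with most peaks. No peak met the rule for a difference between marks. Members, lists and tests were chosen with earlier results of these data known. No column of per-sample values (0) was left without a sample.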

Additional observations from a re-analysis of the deposited data

Results flagged for a closer look

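Among 64 groups of 4 RNA libraries (the named host genes with counts, in each treatment), 2 held a library far from the other 3, and chance flags about 1 in 20 such groups. RUNX1 RNA in DMSO was 22.9 CPM in the lowest library and 35.6, 36.7 and 37.2 CPM in the others, a gap of 0.886 of the whole range. ZBTB20 RNA in DMSO was 16.7 CPM in the highest library and 3.81, 4.16 and 5.15 CPM in the others (0.896 of the range). Both were DMSO replicate 3. In MS275, replicate 3 was again the lowest for RUNX1 (35.3 CPM) and the highest for ZBTB20 (14.3 CPM).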

How the results depend on the processing

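Depth and scaling set the limits. Of the peaks inside genes, 7023 of the 14602 tested for H3K18cr had a mean of at least 50 scaled reads, and 1116 of the 1193 lower calls were among them. The 1 input per treatment carried no error, and with 3 libraries a group the exact tests of sums and shares cannot pass 0.05. The summed reads, the share of reads and the ratio of peaks inside genes to peaks near starts kept their direction under every alternative run for them. The ratios of internal starts to other peaks and of these to intergenic peaks had no alternative.

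The counts of peaks inside genes called lower and higher were 1193 and 52 for H3K18cr and 748 and 41 for H3K18ac. TMM gave 375 and 315 for H3K18cr and 705 higher for H3K18ac. DESeq2 on the recovered reads gave 252 and 46 for H3K18cr and 496 and 123 for H3K18ac. It gave no adjusted p to 9229 of these peaks for H3K18cr, 141 of the lower and 46 of the higher calls among them, and to 7597 for H3K18ac (87 and 41). Limma without a trend gave 529 lower for H3K18cr and 434 and 63 for H3K18ac, and a minimum of 50 reads left 12 and 1 higher. Peaks at least 1 kb from annotated transcript starts held 562 and 291 lower calls. The replicate block gave 101 higher for H3K18cr, and 64 lower and 4 higher for H3K18ac, whose same-numbered libraries did not deviate together (correlations -0.251, 0.121 and -0.148). TMM with the block, chosen after seeing the data, gave 775 and 1018 for H3K18cr and 553 higher for H3K18ac. Leaving out 1 library gave 580 to 1993 lower and 14 to 70 higher for H3K18cr, and 124 to 1266 lower and 5 to 57 higher for H3K18ac. The median log2 change turned from -0.08 to 0.15 with TMM, with or without the block, and to 0.17 with DESeq2 for H3K18cr, and from -0.09 to 0.16 with each of these for H3K18ac. TMM and DESeq2 centre the bulk of the peaks by construction. For the other changes the cause was not tested.

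Between marks in DMSO, 0 calls became 18 lower and 7 higher with TMM, 31 and 19 with DESeq2 and 45 and 22 with TMM and the block; leaving out 1 library gave 0 to 1 higher and 0 lower. Hosts called in RNA were 1 higher and 0 lower; they were 609 and 179 with the replicate block, 51 and 7 with DESeq2, 4 and 1 without the filter, and 0 to 1 higher and 0 to 0 lower without 1 library. Summed reads changed by -0.17 to -0.30 (H3K18cr) and -0.07 to -0.41 (H3K18ac) without 1 replicate number. Of 207 checks of the named falls and rises, 184 kept the call, 23 lost it and 0 reversed.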
